A study of Mus musculus with 2 samples.

Results

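Leukocyte miRNAs were examined in small RNA libraries of mouse adrenal gland, as 7 miRNA genes: Mir142, Mir223, Mir150, Mir342, Mir155, Mir146 and Mir146b. They were chosen by name, as miRNAs known from myeloid or lymphoid cells, and all 7 were found among the 2202 miRNA genes of the tables. The series holds 1 group of 2 libraries, labelled biological replicates 1 and 2, from adrenal tissue of wild-type C57BL/6J mice, an inbred strain. The labels name no treatment and no altered allele, give age and stage as unknown, and call the mice male in free text while the sex field says it was not collected. Both libraries carry the same donor record, so separate animals are not shown, and the spread between replicates may be technical. Replicate 1 had 10263894 counts assigned to miRNA genes and replicate 2 had 3525666, with 13.8% and 41.4% of reads unmapped.

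A miRNA is cut from a hairpin precursor, and a short stretch near its 5′ end, the seed, pairs with target mRNAs and lowers their output. Blood cell lineages differ in the miRNAs they make, so some miRNAs serve as marks of a lineage and others as marks of immune activation. The adrenal gland holds resident macrophages beside its steroid-making cortical cells and its catecholamine-making chromaffin cells, and its dense capillary bed carries blood leukocytes. RNA of the whole gland mixes all of these. More leukocytes and more miRNA per leukocyte cannot be told apart in it, nor can leukocytes of the tissue be told from those in its vessels. Copies of these miRNAs made by other cells, platelets among them, cannot be told from those of leukocytes either.

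The mature sequences show where these genes come close to each other. They are from RefSeq (build GRCm38.p6), written 5′ to 3′ with the seed, bases 2 to 8, in capitals:
miR-142a-3p: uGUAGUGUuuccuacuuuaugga
miR-142a-5p: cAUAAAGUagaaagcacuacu
miR-223-3p: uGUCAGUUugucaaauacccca
miR-150-3p: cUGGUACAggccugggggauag
miR-342-3p: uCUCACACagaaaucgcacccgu
miR-155-5p: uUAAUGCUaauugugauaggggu
miR-146a-5p: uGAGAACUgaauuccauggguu
miR-146b-5p: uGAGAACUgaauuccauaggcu
Of the sequences shown, only miR-146a-5p and miR-146b-5p shared a seed, and no other mature miRNA of the RefSeq table carried any seed shown. Those 2 miRNAs are identical over their first 17 bases and differ as G18A and U21C, counted from the 5′ end of miR-146a-5p, as the capitals mark here:
miR-146a-5p: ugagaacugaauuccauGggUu
miR-146b-5p: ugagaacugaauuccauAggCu
The hairpins of Mir146 and Mir146b share a stretch of 21 nt, so a read of the 5p arm that ends before base 18 cannot be assigned to either. Of Mir150 only miR-150-3p was available for comparison. The seed of its 5p arm was therefore not compared, and its hairpin was not analysed here. For Mir142, Mir223, Mir342 and Mir155 the longest stretch shared with any of the other hairpins was 12 or 13 nt. Counts were made per hairpin, and the level of a gene below is that of both its arms together.

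Leukocyte miRNAs took a small share of the counts in both adrenal libraries. Together the 7 genes took 0.228% of assigned counts in replicate 1 (23443 counts) and 0.232% in replicate 2 (8192 counts), a mean of 0.230% ± 0.00279 (SD, n = 2). At 10 CPM (counts scaled to an equal assigned total) or more in both replicates, 6 of the 7 were detected, against 12.1% of all 2202 miRNA genes, 1435 of which had no count at all. The exception was Mir146b. By mean CPM the other 6 ranked from 73 (Mir146) to 172 (Mir223) among the 2202 miRNA genes. The near equality of the summed share hid opposite differences among the members, given below.

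Mir142, the pan-leukocyte member, is made across the blood lineages and is known from lymphocytes, granulocytes, monocytes and platelets alike. It had 314 CPM in replicate 1 (3219 counts) and 434 CPM in replicate 2 (1530 counts), a mean of 374 ± 85.1 CPM (SD, n = 2). It ranked 119 and 105 among all miRNA genes, so replicate 2 was the higher library. Mir142 (ENSMUSG00000105196.1) lies on mm10 chromosome 11 from 87756864 to 87756927 on the plus strand, in an intron of the noncoding gene Mir142hg. Mir142b is annotated on the opposite strand of the same locus, and the mature miR-142b, of 20 bases, is contained whole in the reverse complement of miR-142a-3p. Strand therefore decides the count here. Mir142b had 0 counts on its own strand in both libraries, which allows up to 0.292 CPM in replicate 1 and 0.851 CPM in replicate 2. In the column that ignores strand, Mir142 had 0 counts in both libraries, since reads under both genes were not assigned to either.

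Mir223, the myeloid member, is known from neutrophils, monocytes and platelets and restrains the granulocyte lineage in mice. It was the member that differed most between the libraries. Mir223 had 59.2 CPM in replicate 1 (608 counts) and 178 CPM in replicate 2 (629 counts), a mean of 119 ± 84.3 CPM (SD, n = 2). The raw counts were nearly equal although replicate 1 held far more assigned reads, so the level of replicate 2 was 2.98-fold that of replicate 1 after scaling. Mir223 (ENSMUSG00000076066.1) lies on chromosome X from 96242817 to 96242926, plus strand, in an exon of the noncoding gene F630028O10Rik.

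Mir150 and Mir342, the lymphoid members, did not move together. Mir150 is abundant in mature B and T lymphocytes, where it targets the transcription factor Myb. It had 136 CPM in replicate 1 (1391 counts) and 264 CPM in replicate 2 (930 counts), a mean of 200 ± 90.7 CPM (SD, n = 2). Mir342 is carried within Evl, a gene of actin regulation, and is known from lymphoid cells but not from them alone. It had 636 CPM in replicate 1 (6526 counts) and 623 CPM in replicate 2 (2197 counts), a mean of 630 ± 8.96 CPM. Mir342 was thus the steadiest of the 7, while Mir150 was higher in replicate 2. Mir150 (ENSMUSG00000065495.1) lies on chromosome 7 from 45121757 to 45121821, plus strand, with no gene over it and Mir5121 on the other strand 5097 bp away. Mir5121 had 328 and 134 counts. Mir342 (ENSMUSG00000065436.1) lies on chromosome 12 from 108658620 to 108658718, plus strand, in an intron of Evl.

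Mir155, Mir146 and Mir146b are the members known for induction on immune activation. Mir155 rises in activated B cells, T cells and macrophages, and Mir146, the mouse gene of miR-146a, is induced through NF-κB and targets the signalling adaptors Traf6 and Irak1. Mir146 was the most abundant of the 7, with 967 CPM in replicate 1 (9929 counts) and 716 CPM in replicate 2 (2523 counts), a mean of 841.5 ± 178 CPM (SD, n = 2). Mir155 had 172 CPM in replicate 1 (1768 counts) and 108 CPM in replicate 2 (381 counts), a mean of 140 ± 45.4 CPM. Both were higher in replicate 1, the reverse of Mir142, Mir223 and Mir150. Mir146b, which has the seed of Mir146, had 2 counts in each library, or 0.195 and 0.567 CPM, with exact Poisson 95% intervals from 0.0236 to 0.704 and from 0.0687 to 2.05 CPM. These intervals cover counting error only, as do all others given here, because copies of 1 molecule made by PCR cannot be recognised. Nearly all uniquely placed reads of these 2 genes thus came from Mir146, with a ratio of Mir146 to Mir146b of 4964.5 in replicate 1 (exact binomial 95% interval 1374 to 40999) and 1261.5 in replicate 2 (349 to 10422).

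Mir155 (ENSMUSG00000065397.1) lies on chromosome 16 from 84714140 to 84714204, plus strand, in an exon of the noncoding gene Mir155hg. Mir146 (ENSMUSG00000065601.1) lies on chromosome 11 from 43374397 to 43374461, minus strand, with no other annotated gene over it. Mir146b (ENSMUSG00000070127.2) lies on chromosome 19 from 46342762 to 46342870, plus strand, in an intron of Mfsd13a. None of the 7 had more than 1 count on the opposite strand in either library.

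**Figure D1:**
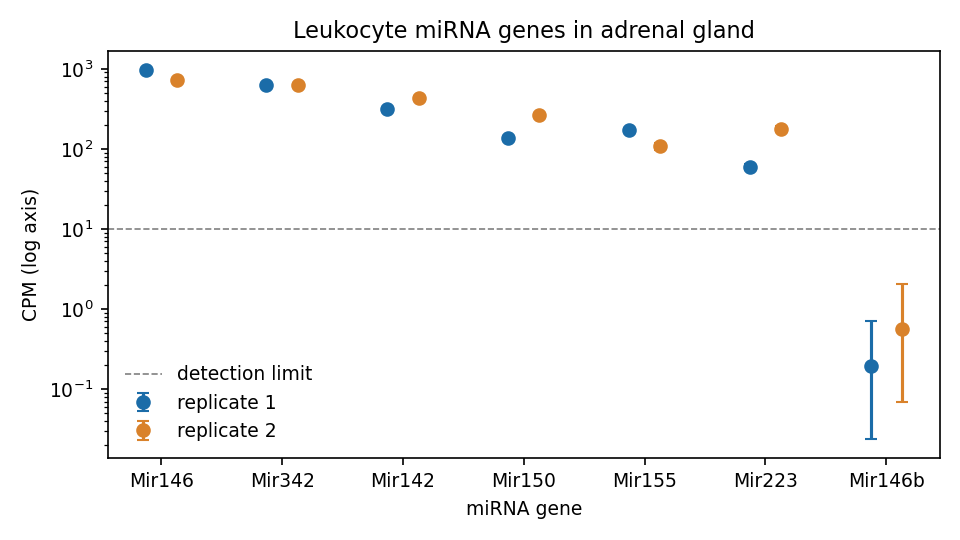
Level of each leukocyte miRNA gene in CPM on a log axis, with replicate 1 (blue) left of replicate 2 (orange), bars for the exact Poisson 95% interval and a dashed line at the detection limit of 10 CPM. Mir146, Mir342 and Mir142 kept their order in both libraries, Mir223 ran from 59.2 to 178 CPM, and Mir146b stood far under the limit.

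In the order of mean level, Mir146, Mir342, Mir142 and Mir150 followed each other with ranges over the 2 replicates that did not overlap. The ranges of Mir146, at 716 CPM in its lower library, and Mir342, at 636 CPM in its higher, lay close, as did those of Mir142 (314 CPM in its lower) and Mir150 (264 CPM in its higher). Below them the order was not fixed. Mir150 stood under Mir155 in replicate 1 (136 against 172 CPM) and above it in replicate 2 (264 against 108 CPM). Mir155 stood above Mir223 in replicate 1 and under it in replicate 2. Levels of different miRNAs also carry the unequal efficiency with which sequences are ligated and amplified in small RNA libraries, whose part in this order was not tested. The miRNA gene nearest in level to each member, by distance of log2(CPM + 1) over the 2 libraries, was Mir376a for Mir142, Mir153 for Mir223, Mir129-2 for Mir150, Mir181c for Mir342, Mir673 for Mir155 and Mir134 for Mir146. The distances ran from 0.03 for Mir134 to 0.20 for Mir153, and for Mir146b 6 genes tied at the same 2 counts in each library. With 2 libraries this is likeness of level alone.

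Summed by class, the activation-induced (3 genes) and lymphoid (2 genes) classes were the most abundant and the myeloid class (1 gene) the least. These sums also depend on how many genes a class holds. The activation-induced genes summed to 1140 CPM in replicate 1, against 824 CPM in replicate 2, and the lymphoid genes had 771 and 887 CPM, so these ranges overlapped. Mir142, with 314 and 434 CPM, lay below both in each library, and Mir223, with 59.2 and 178 CPM, lay below Mir142. Activation-induced genes made up 49.9% of the summed counts of the 7 genes in replicate 1 and 35.5% in replicate 2. Lymphoid genes made up 33.8% and 38.2%, Mir142 13.7% and 18.7%, and Mir223 2.59% and 7.68%. The low place of the myeloid class rests on a single gene. The lymphoid level rests mainly on Mir342, which took 27.8% and 26.8% of the summed counts of the 7 genes. The activation-induced level rests mainly on Mir146, with 42.4% in replicate 1 and 30.8% in replicate 2. Mir155, with 172 and 108 CPM, lay below Mir142 in each library. No alternative without Mir146 was run.

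**Figure D2:**
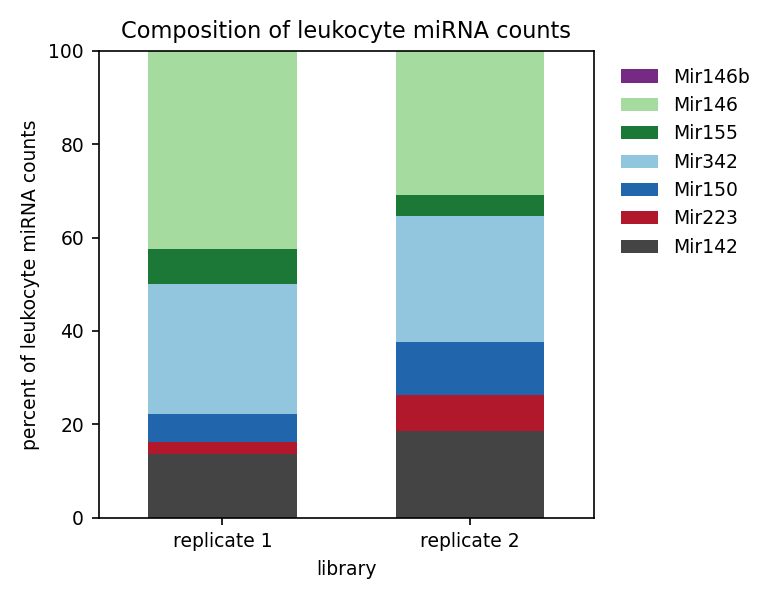
Share of each gene in the summed counts of the 7 leukocyte miRNA genes, in percent, stacked to 100 for replicate 1 (left) and replicate 2 (right). Mir223 took 2.59% in replicate 1 and 7.68% in replicate 2, Mir146 took 42.4% and 30.8%, and Mir146b is too small to be seen.

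Ratios between classes, which do not depend on the scaling of a library, showed the same split. Mir142 counts were 5.29-fold those of Mir223 in replicate 1 (exact binomial 95% interval 4.85 to 5.78) and 2.43-fold in replicate 2 (2.22 to 2.67). Mir223 amounted to 0.0768 of the lymphoid counts in replicate 1 (0.0706 to 0.0834) and 0.201 in replicate 2 (0.184 to 0.219). Both libraries thus held fewer Mir223 reads than lymphoid or Mir142 reads, by amounts that differed between them. The ratio of Mir223 to activation-induced genes was 0.0520 in replicate 1 and 0.216 in replicate 2, the widest disparity of the 6 pairs of classes, 4.17-fold higher in replicate 2 (Fisher's exact test, two-sided, adjusted p = 1.60e-116). The lymphoid to activation-induced ratio was 0.677 in replicate 1 and 1.08 in replicate 2, and so changed sides of 1. Its mean log2 value was -0.23 ± 0.47 (SD, n = 2), and 0.22 with Mir155 counted as lymphoid. The closest pair was Mir142 to lymphoid genes, at 0.407 in replicate 1 and 0.489 in replicate 2 (adjusted p = 9.11e-07, Fisher's exact test over 6 pairs). All 6 ratios differed between the libraries by this test, which compares reads of 2 libraries and not conditions. Over 2 replicates a two-sided exact sign permutation test of a ratio cannot give a p below 0.5, and none was run.

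Without Mir342 the lymphoid class is Mir150 alone, and the place of the class turned. The mean log2 ratio of Mir142 to lymphoid genes was -1.16 ± 0.19 (SD, n = 2) with Mir342 and 0.96 without it, and the log2 ratio of Mir223 to lymphoid genes was -3.01 ± 0.98 with it and -0.88 without it. The lower level of Mir223 than of the lymphoid genes thus held for Mir150 alone too. The lower level of Mir142 did not.

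Gene by gene, 5 of the 6 leukocyte miRNA genes with at least 10 counts differed between the replicates by the exact two-sided binomial test, with Benjamini-Hochberg adjustment over all 443 genes tested. By the same test 52.8% of all genes differed, and 69.9% of the 322 genes with at least 50 counts. All 6 members lay far above that floor, so these genes are not matched to them in depth. The members' share is read as no more than the usual spread of well-counted genes here. Higher in replicate 1 were 2 of the 6, against 31.6% of all genes tested, and higher in replicate 2 were 3 of the 6, against 21.2%. The median absolute log2 ratio was 0.57 over the 6 members and 0.45 over all genes tested. The signed median was -0.20 over the members and 0.17 over all genes tested.

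Mir223 had a log2 ratio, replicate 1 over replicate 2, of -1.57 (95% interval -1.74 to -1.41, adjusted p = 9.82e-78 by the exact binomial test). This was the seventh lowest ratio among the 277 tested genes whose mean reached 10 CPM. Mir150 followed at -0.94 (-1.06 to -0.82) and Mir142 at -0.45 (-0.54 to -0.36). Mir223, Mir150 and Mir142 were thus lower in replicate 1. Mir342, also outside the activation-induced class, did not pass the test, at 0.05 (-0.02 to 0.12, adjusted p = 0.288, exact binomial test). On the other side stood Mir146 at 0.45 (0.39 to 0.52) and Mir155 at 0.69 (0.53 to 0.85). Among 15 pairs of these 6 genes, compared after the values had been seen, every ratio differed between the libraries by Fisher's exact test. The closest pair was Mir155 to Mir146, at 0.178 in replicate 1 and 0.151 in replicate 2 (adjusted p = 0.00649, exact). The most unlike was Mir223 to Mir155, at 0.344 in replicate 1 and 1.65 in replicate 2.

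**Figure D3:**
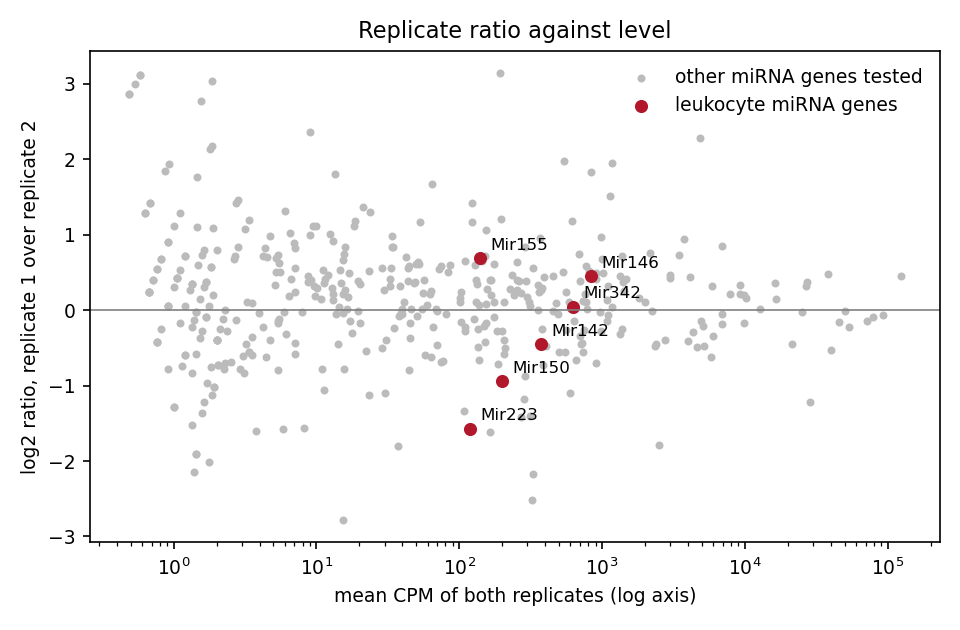
Log2 ratio of replicate 1 over replicate 2 against mean CPM on a log axis for the 443 tested miRNA genes (grey), with the 6 tested leukocyte miRNA genes in red. The red points lie within the grey cloud, from Mir223 at -1.57 to Mir155 at 0.69.

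Markers of other cells were set beside these differences. Erythroid miRNAs (Mir451a, Mir144 and Mir486), which enter tissue RNA with red blood cells, took 0.837% of counts in replicate 1 and 0.181% in replicate 2. Of these 3 genes, 2 were higher in replicate 1 by the binomial test and Mir486, with 13.1 and 9.93 CPM, did not pass. Mir142, Mir223 and Mir150 differed in the opposite direction from the erythroid genes, and Mir146 and Mir155 in the same direction. The part of blood content in the leukocyte values was not tested. Endothelial Mir126a took 8.99% of counts in replicate 1 and 9.56% in replicate 2. The smooth muscle genes Mir143 and Mir145a took 2.56% and 2.66%, and the neuroendocrine genes Mir375, Mir7-1, Mir7-2 and Mir7b took 7.34% and 8.01%, genes known from chromaffin and other neuroendocrine cells. Some single genes within these lists differed more than the sums, as among leukocyte genes. Mir375, which makes up most of the neuroendocrine sum, had a log2 ratio of -0.14, against 0.95 for Mir7-1, 0.43 for Mir7b and -0.39 for Mir7-2. The ratio of Mir7-1 was thus as far from 0 as that of Mir150.

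**Figure D4:**
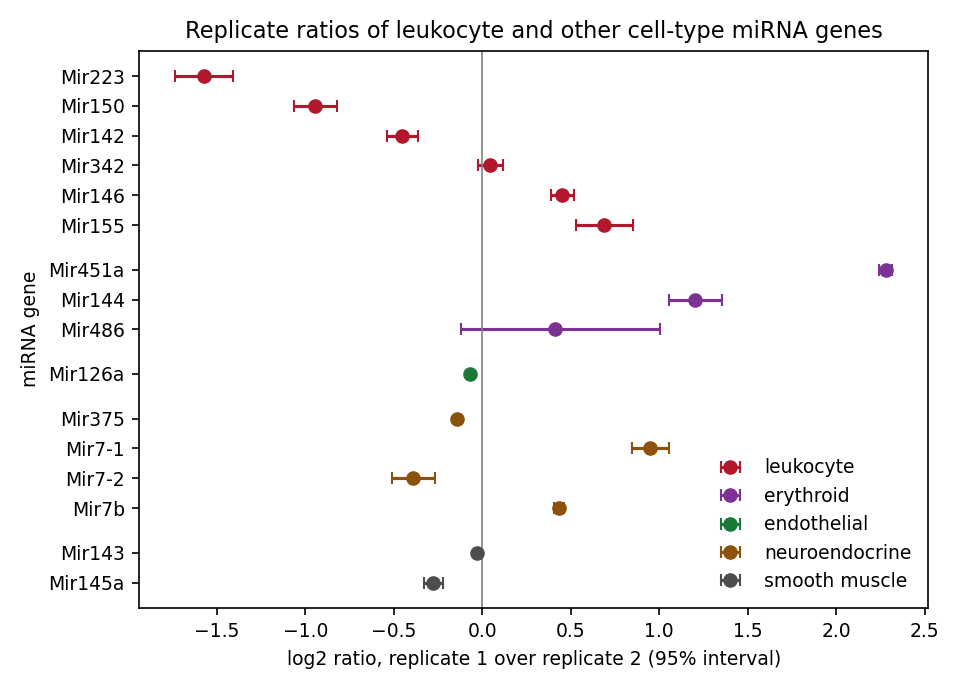
Log2 ratio of replicate 1 over replicate 2, with exact binomial 95% intervals, for the 6 tested leukocyte genes and for erythroid, endothelial, neuroendocrine and smooth muscle genes. Leukocyte genes stand on both sides of 0, and erythroid Mir451a lies farthest right at 2.28.

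Markers of other organs were read on the same scale as the lower members. Liver Mir122 stood at 104 CPM in replicate 1, against 97.6 CPM in replicate 2, close to the level of Mir155 in replicate 2 and above that of Mir223 in replicate 1. Of 5 skeletal and cardiac muscle genes none reached 10 CPM, and Mir208a and Mir208b had no count in either library. Mir206, the highest of them, had 2.14 and 2.55 CPM. A level near 100 CPM was therefore also found for a miRNA known from another organ, whose source was not tested.

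A second list held 20 miRNA genes with reported roles in leukocytes that many other cells make as well. It took 1.91% of counts in replicate 1 and 2.30% in replicate 2, and 16 of the 20 were detected, against 12.1% of all miRNA genes. By the binomial test replicate 1 was the higher library for 11 of the 20 and replicate 2 for 7, while 2 genes did not pass. Over all genes tested, 31.6% were higher in replicate 1 and 21.2% in replicate 2. The list had a median log2 ratio of 0.29, against 0.17 over all genes tested. Its 4 highest members were Mir21a, Mir125a, Mir29a and Mir132. Mir21a, induced in many inflamed tissues, stood at 5213 CPM in replicate 1, against 6674.5 CPM in replicate 2. Mir125a, which acts in blood stem cells and macrophages, had 4510 and 6996 CPM, and Mir29a, which targets collagen mRNAs and acts in T cells, had 4283 and 6053 CPM. Mir132, induced by cAMP signalling and in activated myeloid cells, had 1302 and 673 CPM. The first 3 were higher in replicate 2 and Mir132 in replicate 1, so this list too held both directions.

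Mir511 and Mir147, named for their links to macrophages after their values were seen, were under the detection limit. Mir511, whose host gene Mrc1 encodes the mannose receptor of tissue macrophages, had 8.67 CPM in replicate 1 (89 counts) and 3.40 CPM in replicate 2 (12 counts). Its log2 ratio of 1.32 (adjusted p = 0.00199, exact binomial test) had the opposite sign to that of myeloid Mir223. Mir147, induced in macrophages by Toll-like receptor signals, had 2.83 and 4.26 CPM. Its log2 ratio of -0.60 had the sign of that of Mir223 but did not pass the test (adjusted p = 0.327, exact binomial test). Mir223 and Mir511 thus differed in opposite directions between these 2 libraries, with Mir511 under the detection limit.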

How the data were processed

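MicroRNA reads with inserts below 30 nt, per the labels, had been counted per miRNA gene. The authors deposited raw counts, 1 table per library, against build mm10 and annotation GENCODE M21, per the accompanying description files. Neither aligner nor counter is named (not given in the sources used here). Of the 3 columns of counts, the one on the strand of the gene was used. Multimapping, unmapped, ambiguous and featureless reads stayed out of totals and tests. All 2202 identifiers matched M21. The 7 members, the other lists and the tests were chosen with earlier results of these data known. Named besides members were the gene nearest in level to each, neighbours within 10 kb, and the 4 highest genes of the second list. Markers of other cells and organs were named too. Mir511 and Mir147 of the second list were named after their values were seen.

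CPM used assigned totals. With 1 group, edgeR and DESeq2 had no contrast to fit. Replicates were compared per gene by an exact two-sided binomial test on TMM-scaled library sizes (edgeR 4.0.16, R 4.3.3). Genes with at least 10 counts were tested, Benjamini-Hochberg adjusted at 0.05. The test was also run on simulated data with counting noise alone, which cannot show how it behaves under wider spread between libraries. Log2 ratios had 0.5 counts added. Class ratios used Fisher's exact test (scipy 1.17.1). A count of 0 was taken to allow 3 counts. Alternatives covered strand, denominator, scaling (also DESeq2 1.42.0 size factors), count filters, depth, class membership and each replicate alone.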

Additional observations from a re-analysis of the deposited data

How the results depend on the processing

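The summed share of the 7 leukocyte genes, 0.230% of assigned counts, was 0.220% in counts without regard to strand, where Mir142 is lost, 0.132% of mapped reads and 0.398% with the 5 most abundant other genes out of the total. It ran from 0.228% to 0.232% with each replicate alone. Counting Mir155 as lymphoid gave a mean log2 ratio of Mir142 to lymphoid genes of -1.39 and turned lymphoid over activation-induced from -0.23 to 0.22, within its SD of 0.47. That ratio was -0.56 to 0.11 with each replicate alone. Leaving out Mir342 turned the mean log2 ratio of Mir142 to lymphoid genes to 0.96. The replicate difference of this ratio turned from -0.27 to 0.49 (adjusted p = 1.21e-10, Fisher's exact test). Without Mir342, myeloid over lymphoid also moved to -0.88 and lymphoid over activation-induced to -2.36. Ratios with Mir142 could not be had without strand. Genes detected numbered 6, and 5 without regard to strand or at a limit of 100 CPM. Genes higher in replicate 1 stayed at 2 under the alternatives run. Genes higher in replicate 2 numbered 3, and 2 without regard to strand, where Mir142 is lost. The log2 ratio of Mir342 was -0.01 with DESeq2 size factors and passed no test. Depth limits Mir146b, with 2 counts in each library, and 2 libraries from 1 donor record limit every statement on spread.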
